A study of Mus musculus with 2 samples.

Results

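Small leucine-rich proteoglycans are secreted matrix proteins, and 10 of their genes were followed here among the 31253 genes counted in 2 single-cell libraries of mouse periosteum. The members were chosen by name and were *Dcn* (decorin), *Bgn* (biglycan), *Aspn* (asporin), *Fmod* (fibromodulin), *Lum* (lumican), *Prelp*, *Kera* (keratocan), *Omd* (osteomodulin), *Ogn* (osteoglycin) and *Chad* (chondroadherin), and all 10 were in the files. The control library came from Prx1 Cre; Ai9/+ mice and the other from Prx1 Cre; Ai9/+; Piezo1 fl/fl mice, so both carried the Cre driver and the Ai9 reporter and only the second carried floxed *Piezo1*. Cells of femurs and tibias at 8 weeks of age were sorted as Prx1 positive, thawed and run on the BD Rhapsody system. Prx1 Cre is active in limb mesenchyme, so *Piezo1* would be lost in that lineage and not in other cells. Each genotype was 1 library, the labels do not give how many mice went into it, and genotype and library cannot be told apart. No test across samples was therefore possible, and every interval below is a 95% interval that covers counting error only.

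Members of this family share a protein core of leucine-rich repeats and most bind collagen fibrils, where they set fibril diameter and spacing. Decorin and biglycan carry chondroitin or dermatan sulfate chains, while fibromodulin, lumican, keratocan and osteomodulin can carry keratan sulfate, and asporin and chondroadherin are made without such chains. Periosteum, the sheath of bone, holds a fibrous layer next to an inner layer that forms bone, and tendons insert through it.

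Several members are neighbours in the mouse genome (GENCODE vM21, GRCm38). *Dcn*, *Lum* and *Kera* follow each other on chromosome 10 with 46984 and 34175 bases between them and no other protein-coding gene. *Aspn*, *Omd* and *Ogn* follow each other on chromosome 13 with 14896 and 15223 bases between them, and all 3 lie inside *Cenpp*, a gene on the other strand. *Prelp* and *Fmod* lie 115839 bases apart on chromosome 1, and *Bgn* and *Chad* lie on chromosomes X and 11. *Chad* overlaps *Acsf2* and *Prelp* overlaps *Gm15851*, each on the other strand, and whether counting used strand is not given in the sources used here. *Cenpp* had at most 33 UMIs, *Acsf2* at most 68 and *Gm15851* at most 1 in any of the 10 types compared between the libraries.

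The promoters of the 3 neighbours on chromosome 13 are shown because these genes adjoin and have related but not equal patterns of level, given below, and those of *Chad*, *Fmod* and *Kera* because these members set tendon-like or SSPC-1-like cells apart. Each runs from 250 bases before to 50 bases after the RefSeq start of the gene (GRCm38.p6), 5′ to 3′ on the strand of the gene, and capitals mark the TATA motif TATAAA, the RUNX motif TGTGGT and the E-box CAGCTG on either strand. The windows are chr13:49544193-49544492 for *Aspn*, chr13:49582212-49582511 for *Omd*, chr13:49607765-49608064 for *Ogn*, chr11:94564797-94565096 for *Chad*, chr1:134037004-134037303 for *Fmod* and chr10:97606955-97607254 for *Kera*, all on the plus strand.
Aspn: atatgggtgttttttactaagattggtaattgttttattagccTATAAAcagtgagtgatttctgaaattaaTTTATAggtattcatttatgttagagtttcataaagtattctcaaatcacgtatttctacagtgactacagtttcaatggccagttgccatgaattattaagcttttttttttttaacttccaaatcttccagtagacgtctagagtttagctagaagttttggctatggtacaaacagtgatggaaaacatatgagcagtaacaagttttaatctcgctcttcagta
Omd: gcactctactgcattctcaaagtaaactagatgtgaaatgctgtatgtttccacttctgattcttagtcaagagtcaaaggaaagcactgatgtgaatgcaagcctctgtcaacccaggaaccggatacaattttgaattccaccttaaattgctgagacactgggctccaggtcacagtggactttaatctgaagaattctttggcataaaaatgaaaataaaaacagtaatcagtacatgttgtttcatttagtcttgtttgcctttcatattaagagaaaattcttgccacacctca
Ogn: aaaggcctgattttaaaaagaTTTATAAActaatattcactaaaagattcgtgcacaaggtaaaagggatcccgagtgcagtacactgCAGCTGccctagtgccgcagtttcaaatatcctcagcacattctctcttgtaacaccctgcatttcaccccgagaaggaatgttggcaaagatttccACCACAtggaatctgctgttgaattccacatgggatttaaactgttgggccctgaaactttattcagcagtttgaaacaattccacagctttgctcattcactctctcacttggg
Chad: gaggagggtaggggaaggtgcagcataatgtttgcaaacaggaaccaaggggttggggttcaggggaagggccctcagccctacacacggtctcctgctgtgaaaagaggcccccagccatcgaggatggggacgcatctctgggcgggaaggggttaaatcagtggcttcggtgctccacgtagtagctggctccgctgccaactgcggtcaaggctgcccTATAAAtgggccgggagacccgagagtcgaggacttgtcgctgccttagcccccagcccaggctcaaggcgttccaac
Fmod: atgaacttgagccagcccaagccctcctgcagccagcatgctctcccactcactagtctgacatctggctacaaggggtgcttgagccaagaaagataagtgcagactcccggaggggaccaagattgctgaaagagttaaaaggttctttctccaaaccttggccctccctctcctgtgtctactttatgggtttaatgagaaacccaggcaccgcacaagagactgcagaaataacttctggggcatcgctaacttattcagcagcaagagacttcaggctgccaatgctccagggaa
Kera: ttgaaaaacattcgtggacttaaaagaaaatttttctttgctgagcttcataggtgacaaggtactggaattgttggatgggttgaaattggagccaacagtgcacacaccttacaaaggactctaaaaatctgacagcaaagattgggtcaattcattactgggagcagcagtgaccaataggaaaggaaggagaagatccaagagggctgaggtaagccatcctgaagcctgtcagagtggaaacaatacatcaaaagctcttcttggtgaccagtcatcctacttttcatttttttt
RefSeq windows were matched for 8 of the 10 members, and TATAAA was found in those of *Aspn*, *Ogn* and *Chad*, against 13.6% of 32851 promoters of the same length. The match in *Chad* begins 28 bases before the start, while those in *Aspn* begin 207 and 178 bases and those in *Ogn*, which overlap each other, 229 and 227 bases before it. TGTGGT, a motif bound by RUNX factors, was found in *Ogn* alone (16.8% of all promoters), and CAGCTG in *Ogn* and *Bgn* (16.3% of all promoters). These are matches of letters in a window and no factor was measured at them.

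From the control, 6118 barcodes with 28030299 UMIs were deposited and 4418 cells were kept, and from Piezo1 fl/fl mice 7469 barcodes with 32337308 UMIs, of which 5084 were kept. *Piezo1* itself had 147 UMIs (5.24 CPM, UMIs per 1000000) in the control and 74 UMIs (2.29 CPM) in the other. The counts are 3′ tags and the labels do not say which exons are floxed, so this does not check the deletion. The libraries shared 50 barcodes, against 51.6 for independent draws from the label set. Each cell took the type whose markers, none of them a member, fitted its counts at least 100 times better than the next type, and cells below this were left unassigned (236 and 367). SSPC stands for skeletal stem and progenitor cell. The calls gave SSPC-1-like cells (*Egfl6*, *Fgf18*, *Col8a1*), SSPC-2-like cells (*Tnn*, *Postn*, *Mmp13*), mature osteoblast-like cells (*Bglap*, *Dmp1*), tendon-like cells (*Tnmd*, *Thbs4*, *Scx*), 2 fibroblast types led by *Pi16* and by *Gdf10*, lining-like cells (*Prg4*), mural-like, endothelial-like, blood-like and chondrocyte-like cells. Cells called by marrow stromal markers were left as Cxcl12-led, since *Adipoq*, a defining marker, was at 9.72 CPM in the control. Although the sort was for Prx1 positive cells, 8.92% of the kept cells in the control and 9.85% in the other were blood-like.

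The tendon-like type was larger in the Piezo1 fl/fl library, with 800 cells against 328, and SSPC-2-like cells were fewer, with 398 against 733. SSPC-1-like and tendon-like cells were hard to part, and whether they form a range or separate groups was not tested. In the Piezo1 fl/fl library 1441 cells had SSPC-1-like and tendon-like as their best and next best fitting types, in either order. Of these, 92 fell under the call limit and the rest passed it, against 30 under the limit of 881 such cells in the control. Where clusters were named from the same markers, 206 of the 328 tendon-like cells of the control lay in a tendon-like cluster, and 383 of the 800 in the other library. The 10 leading genes of SSPC-1-like cells held *Cilp2*, a marker of the tendon-like type, in both libraries. Markers of their own type among them were *Col8a1* and *Egfl6* in the control and *Col8a1* alone in the other.

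Levels below are CPM, the UMIs of a gene per 1000000 UMIs of its cell type. Each UMI stands for 1 captured molecule, so levels were not divided by gene length. Together the 10 genes held 5.30% of all UMIs of tendon-like cells in the control (interval 5.26 to 5.33) and 4.29% in the other (4.27 to 4.31), the highest share of the types with 50 or more cells. The share was 3.91% and 3.48% in SSPC-1-like cells, 2.73% and 2.18% in SSPC-2-like cells, and 1.18% in the mature osteoblast-like cells of the control. The family was made up differently in each type. *Dcn* was 60.6% of the family's UMIs in Pi16 fibroblast-like cells of the control and 67.8% in Gdf10 fibroblast-like cells, while *Aspn* was 41.4% in SSPC-2-like cells, *Fmod* 24.2% in tendon-like cells and *Chad* 15.6% in SSPC-1-like cells.

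**Figure D1:**
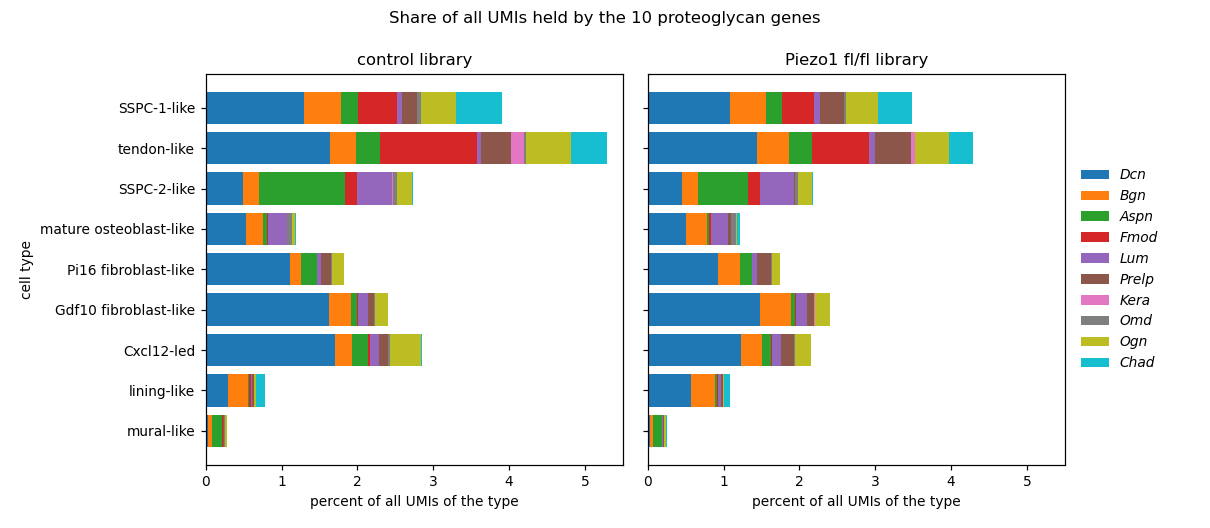
Share of all UMIs of each cell type held by the 10 genes (horizontal axis, percent), split by gene in colour, for the control library (left) and the Piezo1 fl/fl library (right). Tendon-like cells had the longest bar in both libraries (5.30% and 4.29%), and the *Aspn* segment was widest in SSPC-2-like cells.

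Blood-like cells, which should lack these transcripts, gave the level of free RNA. There *Dcn* stood at 328 CPM in the control and 286 CPM in the other, 3.02% and 2.69% of its level over all stromal cells. The other members stood at 1.97% to 3.26% of their stromal level in the control and 1.53% to 4.19% in the other library. Mural-like cells differed from this, since *Aspn* stood at 433 UMIs per 100 *Dcn* UMIs in them against 33.3 in blood-like cells of the control, and at 480 against 21.4 in the Piezo1 fl/fl library. *Aspn* was at 1355 and 1107 CPM in mural-like cells, which are the muscle and pericyte cells of vessel walls.

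**Figure D2:**
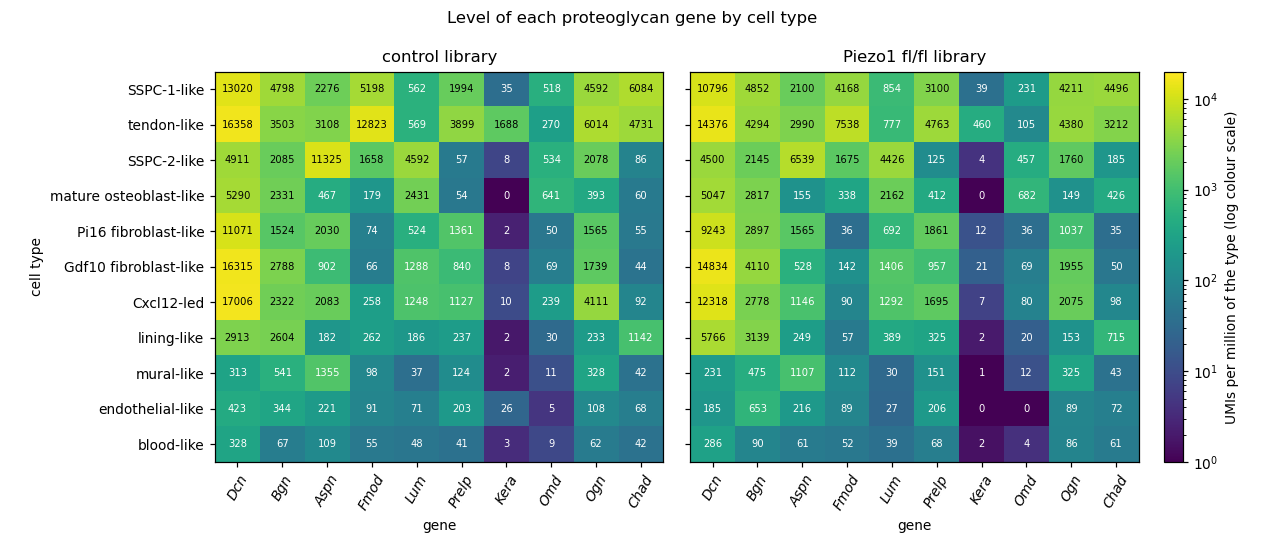
Level of each gene (columns) in each cell type (rows) in CPM, on a log colour scale with the value printed in each cell, for the control library (left) and the Piezo1 fl/fl library (right). *Kera* was above 100 only in tendon-like cells (1688 and 460), and *Chad* stood at 6084 and 4496 in SSPC-1-like cells against 85.5 and 185 in SSPC-2-like cells.

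Among the 10 types with 50 or more cells in both libraries, 9 of 10 members had the same highest type in both libraries, against 76.5% of 3378 genes. Among the types with 50 or more cells in the library itself, which adds mature osteoblast-like cells in the control, the highest exceeded the next by 2 times or more for 3 of 10 members in each library (*Fmod*, *Kera* and *Aspn* in the control, *Lum*, *Kera* and *Aspn* in the other), against 29.5% and 30.1% of all genes. The second count stands at the background of all genes.

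*Dcn*, the collagen-binding proteoglycan with 1 chain, was the most abundant member in every stromal type with 50 cells other than SSPC-2-like, where *Aspn* exceeded it. In the control it stood at 17006 CPM in Cxcl12-led, 16358 in tendon-like, 16315 in Gdf10 fibroblast-like, 13020 in SSPC-1-like, 11071 in Pi16 fibroblast-like and 4911 in SSPC-2-like cells. In the Piezo1 fl/fl library the values were 12318, 14376, 14834, 10796, 9243 and 4500 CPM. The highest type exceeded the next by 1.04 times (1.02 to 1.06) in the control and 1.03 times (1.02 to 1.05) in the other, and the first place changed from Cxcl12-led to Gdf10 fibroblast-like cells between the libraries.

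*Bgn*, close kin of decorin with 2 chains, was highest in SSPC-1-like cells among the types with 50 or more cells, at 4798 CPM (4732 to 4865) in the control and 4852 (4781 to 4923) in the other. Tendon-like cells came next, at 3503 and 4294 CPM, and the 13 and 12 chondrocyte-like cells had 4449 and 5965 CPM. The lowest of the stromal types with 50 cells was Pi16 fibroblast-like in the control, at 1524 CPM, and SSPC-2-like in the other library, at 2145 CPM.

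*Aspn*, a kin of both that carries no such chain, was highest in SSPC-2-like cells, at 11325 CPM (11235 to 11415) in the control and 6539 (6441 to 6638) in the other. It exceeded tendon-like cells, the next type, by 3.64 times and 2.19 times. Over SSPC-1-like cells the log2 ratio was 2.31 (2.28 to 2.35) in the control and 1.64 (1.60 to 1.68) in the other.

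*Lum*, a keratan sulfate proteoglycan of collagen fibrils, was also highest in SSPC-2-like cells, at 4592 CPM (4535 to 4650) and 4426 (4346 to 4508). In SSPC-1-like cells it was at 562 and 854 CPM, which gave log2 ratios of 3.03 (2.97 to 3.09) and 2.37 (2.32 to 2.43). Although *Lum* and *Kera* adjoin on chromosome 10, *Kera* was at 7.84 and 4.23 CPM in SSPC-2-like cells, against 3.48 and 1.58 CPM in blood-like cells.

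*Fmod*, which binds the same collagen site as lumican, was highest in tendon-like cells, at 12823 CPM (12664 to 12983) in the control and 7538 (7456 to 7620) in the other. SSPC-1-like cells came next, at 5198 and 4168 CPM, and SSPC-2-like cells had 1658 and 1675 CPM. Pi16 fibroblast-like cells had 74.2 and 36.4 CPM and Gdf10 fibroblast-like cells 66.4 and 142 CPM, against 54.6 and 51.8 CPM in blood-like cells. The 142 CPM was 2.74 times the blood-like level of its library.

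*Kera*, best known from the cornea, was found almost wholly in tendon-like cells, at 1688 CPM (1631 to 1747) in the control and 460 (440 to 480) in the other. SSPC-1-like cells, the next type, had 35.4 and 38.7 CPM, so that the first exceeded the second by 47.7 times (40.5 to 56.7) and 11.9 times (10.0 to 14.2). After each cell was thinned to 2500 UMIs, a *Kera* UMI was found in 48.0% of tendon-like cells of the control and 22.4% of those of the other library. The same share was 1.98% and 0.474% in blood-like cells, and before thinning the tendon-like shares were 50.6% and 24.8%. The tenth of tendon-like cells with the most *Kera* held 51.7% of its UMIs in the control and 83.0% in the other.

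*Prelp*, which binds collagen and heparan sulfate, was also highest in tendon-like cells, at 3899 and 4763 CPM, followed by SSPC-1-like cells at 1994 and 3100 CPM. In SSPC-2-like cells it was at 57.1 and 125 CPM, against 40.6 and 68.4 CPM in blood-like cells. Unlike *Fmod*, it was well above blood-like cells in Pi16 fibroblast-like cells, at 1361 and 1861 CPM.

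*Ogn*, a small member of the class of osteoglycin, was highest in tendon-like cells, at 6014 CPM (5906 to 6125) and 4380 (4318 to 4443). SSPC-1-like cells had 4592 and 4211 CPM, and the ratio between these neighbours was 1.31 in the control and 1.04 (1.02 to 1.06) in the other. *Omd*, its neighbour on chromosome 13 and a mineral-binding protein of bone, stood at 641 CPM (578 to 708) in mature osteoblast-like cells of the control, 534 in SSPC-2-like and 518 in SSPC-1-like cells. In the Piezo1 fl/fl library SSPC-2-like cells had 457 CPM, SSPC-1-like cells 231 CPM and the 17 mature osteoblast-like cells 682 CPM. The 13 and 12 chondrocyte-like cells had 648 and 990 CPM of *Omd*.

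*Chad*, a cartilage protein that binds integrin, was highest in SSPC-1-like cells among the large types, at 6084 CPM (6010 to 6159) and 4496 (4428 to 4565), with tendon-like cells at 4731 and 3212 CPM. Chondrocyte-like cells stood higher, at 12395 and 9335 CPM, but there were 13 and 12 of them. In SSPC-2-like cells it was at 85.5 and 185 CPM, which gave log2 ratios to SSPC-1-like cells of -6.15 (-6.29 to -6.02) and -4.60 (-4.73 to -4.47).

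The first comparison set SSPC-2-like against SSPC-1-like cells. *Lum* and *Aspn* were at least 2 times higher in SSPC-2-like cells in both libraries (2 of 10, against 5.10% of all genes in the control and 4.83% in the other). *Dcn*, *Bgn*, *Fmod*, *Kera*, *Ogn*, *Prelp* and *Chad* were at least 2 times lower in both (7 of 10, against 13.2% and 11.2%). Of these, 3 were low in SSPC-2-like cells, *Kera* at 2.25 and 2.68, *Prelp* at 1.41 and 1.82 and *Chad* at 2.05 and 3.03 times the blood-like level. *Kera* was sparse in SSPC-1-like cells too, with a UMI in 4.59% and 4.14% of them. The median log2 ratio of the members was -1.30 in the control and -1.26 in the other, against -0.23 and -0.18 over all genes. *Omd* was the exception, with a log2 ratio of 0.04 (-0.04 to 0.12) in the control and 0.98 (0.85 to 1.11) in the other.

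The second comparison set tendon-like against SSPC-1-like cells. In the control *Fmod* and *Kera* were at least 2 times higher (2 of 10, against 2.86%), with log2 ratios of 1.30 (1.28 to 1.33) and 5.58 (5.34 to 5.82). In the Piezo1 fl/fl library *Kera* alone passed this fold (1 of 10, against 1.54%), at 3.57 (3.32 to 3.83), and *Fmod* was at 0.85 (0.83 to 0.88). *Omd* was at least 2 times lower in the Piezo1 fl/fl library (1 of 10, against 3.07%), at -1.13, and at -0.94 in the control, where 0 of 10 members were that much lower (6.45% of all genes).

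The cells of both types were also placed on 1 scale by the likelihood of their markers and divided at 4 common limits into 5 bins. In the control *Kera* stood at 2.28, 44.3, 147, 827 and 2366 CPM from the SSPC-1-like to the tendon-like end, and *Fmod* at 4950, 5180, 5880, 8298 and 16379 CPM. *Omd* went the other way, at 575, 488, 405, 386 and 181 CPM. In the Piezo1 fl/fl library *Kera* stood at 4.01, 43.9, 83.4, 98.1 and 997 CPM and *Omd* at 310, 275, 176, 70.8 and 102 CPM. Most of the *Kera* level was thus in the last bin in both libraries. In the first bin *Kera* did not exceed its 7.84 and 4.23 CPM in SSPC-2-like cells. The bins did not hold the same marker levels in both libraries, since *Scx*, a tendon transcription factor, stood at 155 CPM in the last bin of the control and 1131 CPM in that of the other. *Tnmd*, also a tendon-like marker, went the other way, at 3372 and 2953 CPM in the last bin. In bin 4 *Scx* was at 66.5 and 311 CPM and *Tnmd* at 1431 and 817 CPM.

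**Figure D3:**
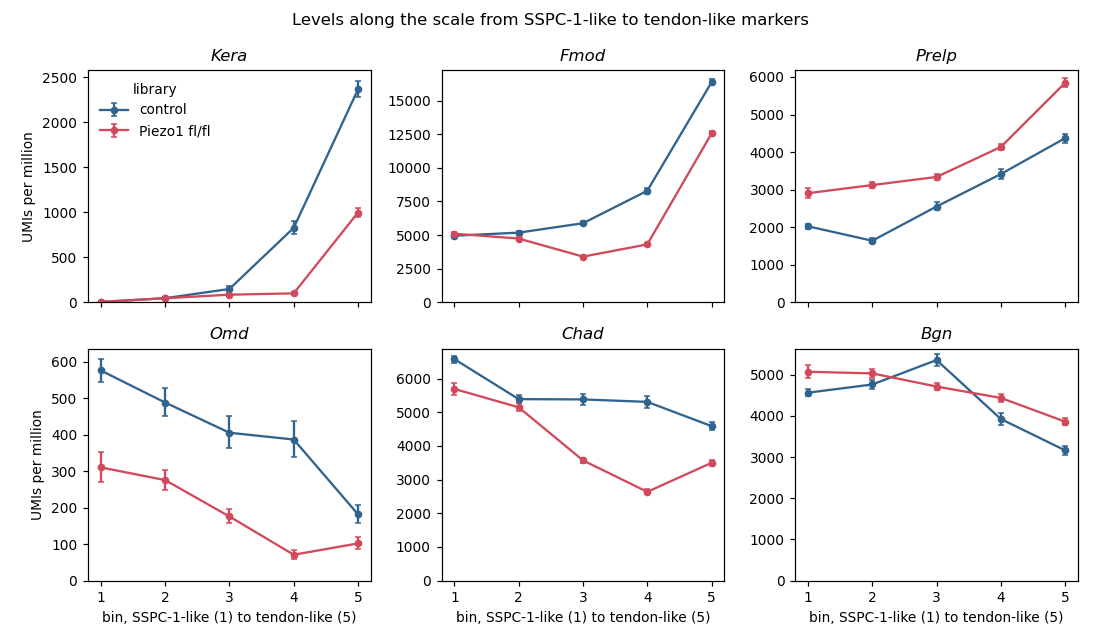
Level of 6 members (vertical axis, CPM, starting at 0) in 5 bins of cells ordered from SSPC-1-like to tendon-like markers (horizontal axis), with the control library in blue and the Piezo1 fl/fl library in red and bars for the 95% counting interval. *Kera* reached 2366 in the last bin of the control and 997 in that of the other library, and *Omd* was lower in the Piezo1 fl/fl library in every bin.

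The third comparison set mature osteoblast-like against SSPC-2-like cells, with 71 mature cells in the control and 17 in the other library. In the control *Fmod*, *Ogn* and *Aspn* were at least 2 times lower (3 of 9 with 50 UMIs, against 12.7%), and none was higher (0 of 9, against 4.53%). *Aspn* was at 467 CPM in mature cells, a log2 ratio of -4.60 (-4.78 to -4.43). *Dcn* and *Omd* differed little, at 0.11 (0.05 to 0.16) and 0.26 (0.10 to 0.42). In the Piezo1 fl/fl library *Fmod*, *Lum*, *Ogn* and *Aspn* were lower (4 of 9, against 28.4%) and *Prelp* and *Chad* higher (2 of 9, against 3.40%), the last 2 on 61 and 63 UMIs in mature cells.

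SSPC-2-like cells of each library were divided into 3 equal parts by *Ibsp*, a bone matrix gene that rises as osteoblasts form. *Aspn* in the control was at 12790, 13100 and 8027 CPM from the lowest to the highest part, and then at 467 CPM in mature osteoblast-like cells. *Ogn* was at 2625, 2036 and 1625 CPM and then 393, and *Fmod* at 1997, 1770 and 1224 CPM and then 179. *Omd* had its lowest value in the part highest for *Ibsp*, at 455 CPM, between 613 CPM in the lowest part and 641 CPM in mature cells. In the Piezo1 fl/fl library *Omd* was again lowest in that part, at 810, 428, 195 and 682 CPM in the same order, and *Aspn* was at 8898, 7734, 3681 and 155 CPM. The parts were not alike in both libraries, since *Ibsp* stood at 9011 CPM in the highest part of the control and 18199 CPM in that of the other.

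**Figure D4:**
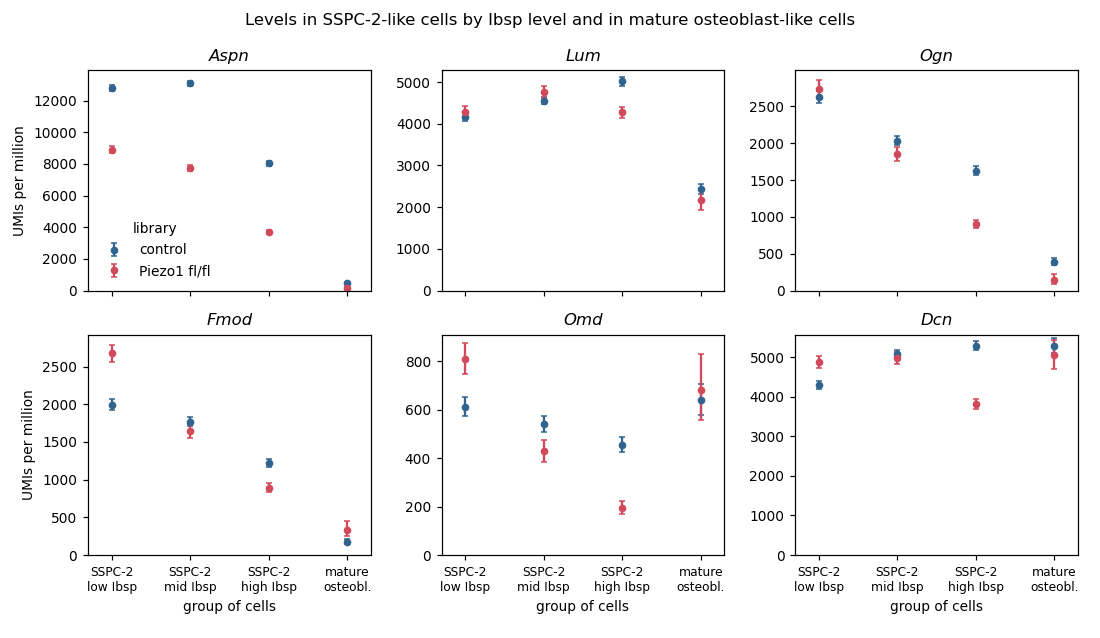
Level of 6 members (vertical axis, CPM, starting at 0) in 3 parts of SSPC-2-like cells by *Ibsp* and in mature osteoblast-like cells (horizontal axis), control in blue, Piezo1 fl/fl in red, with 95% counting intervals. *Aspn* fell to 467 and 155 in mature cells, whereas *Dcn* stood at 5290 and 5047.

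The fourth comparison set Gdf10 fibroblast-like against Pi16 fibroblast-like cells. *Lum* was at least 2 times higher in both libraries, at log2 ratios of 1.30 (1.22 to 1.37) and 1.02 (0.96 to 1.09), alone in the control (1 of 9, against 4.30%) and with *Fmod* in the other (2 of 10, against 4.42%). *Fmod* was low there, at 142 CPM in Gdf10 and 36.4 CPM in Pi16 fibroblast-like cells, against 51.8 CPM in blood-like cells. *Aspn* was at least 2 times lower in both, at -1.17 (-1.24 to -1.10) and -1.57 (-1.65 to -1.48) (1 of 9 and 1 of 10, against 4.58% and 4.24%). With clusters named from the same markers, neither gene passed the fold in the control.

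Piezo1 fl/fl cells were then compared with control cells of the same type, with 1.5 times as the fold. Among the 91 pairs of member and type with 50 UMIs, 13 were higher and 20 lower in the Piezo1 fl/fl library, while over all genes the share of a type ran from 3.63% to 14.9% higher and from 5.27% to 14.0% lower. Each type is set beside its own share in what follows.

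In tendon-like cells *Kera*, *Omd* and *Fmod* were lower (3 of 10, against 7.50% of 8384 genes) and none was higher (0 of 10, against 8.72%). *Kera* was at 1688 CPM in the control and 460 CPM in the other, a log2 ratio of -1.88 (-1.96 to -1.80). *Omd* was at 270 and 105 CPM, a ratio of -1.35 (-1.54 to -1.17), and *Fmod* at 12823 and 7538 CPM, a ratio of -0.77 (-0.79 to -0.74). The size of the tendon-like type moved with this, at 328 cells in the control and 800 in the other. Within the last bin of the common scale the log2 ratios were -1.25 (-1.34 to -1.16) for *Kera*, -0.83 for *Omd* and -0.38 for *Fmod*. They were lower in bin 4, at -3.07, -2.45 and -0.95 in the same order. In bin 2 they were -0.01 (-0.55 to 0.52), -0.83 and -0.13. In clusters the share of tendon-like cells with a *Kera* UMI was 69.0% and 40.7%. The part of the type call in these ratios was not tested.

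In SSPC-1-like cells *Omd* was lower (1 of 10, against 8.74%), at 518 CPM in the control and 231 CPM in the other, a log2 ratio of -1.16 (-1.28 to -1.05). *Prelp* and *Lum* were higher (2 of 10, against 557 of 9288 genes or 6.0%), at ratios of 0.64 (0.60 to 0.68) and 0.60 (0.52 to 0.68). *Bgn* did not differ beyond counting error, at 0.02 (-0.01 to 0.05).

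In SSPC-2-like cells *Aspn* and *Kera* were lower (2 of 10, against 5.44%), and *Prelp* and *Chad* higher (2 of 10, against 7.09%). *Aspn* was at 11325 CPM in the control and 6539 CPM in the other, a log2 ratio of -0.79 (-0.82 to -0.77). *Kera* rested on 42 and 11 UMIs, and its interval held 0 (-2.00 to 0.09). *Prelp* and *Chad* were low there, at 1.82 and 3.03 times the level of blood-like cells in the Piezo1 fl/fl library, where blood-like levels of both were also higher than in the control. *Aspn* was lower in Gdf10 fibroblast-like cells too, at -0.77 (-0.87 to -0.68), and in blood-like cells, at -0.83 (-1.15 to -0.52). Within SSPC-2-like cells *Ibsp* differed, at 8.03 and 63.6 CPM in the part lowest for it and 681 and 3244 CPM in the middle part. *Aspn* was at 12790 and 8898 CPM in the lowest part and 13100 and 7734 CPM in the middle part. How far the *Ibsp* difference entered the *Aspn* ratio was not tested.

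In Pi16 fibroblast-like cells *Bgn* was higher, at 1524 and 2897 CPM, a log2 ratio of 0.93 (0.89 to 0.97), and *Ogn* lower, at -0.59 (-0.64 to -0.54). With *Kera*, 2 of 10 members were higher (4.14% of all genes), and with *Fmod* and *Chad* 3 of 10 were lower (6.81%). *Fmod* and *Chad* were at 1.36 and 1.31 times the blood-like level in the control and 0.70 and 0.58 times in the other, and *Kera* rested on 11 and 77 UMIs and changed sign with clusters. In Gdf10 fibroblast-like cells *Fmod* and *Kera* were higher (2 of 10, against 5.33%) and *Aspn* lower (1 of 10, against 7.68%). *Fmod* and *Kera* both changed sign there with clusters.

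In Cxcl12-led cells 4 of 9 members were lower (14.0% of all genes), namely *Omd* at a log2 ratio of -1.57, *Fmod* at -1.51, *Ogn* at -0.99 and *Aspn* at -0.86, and *Prelp* was higher (1 of 9, against 8.61%) at 0.59. *Adipoq* moved with this, at 9.72 CPM in the control and 186 CPM in the other, so the cells under this name were not alike in both libraries. In lining-like cells *Dcn* and *Lum* were higher (2 of 8, against 14.9%), at 0.99 and 1.06, and *Fmod*, *Chad* and *Ogn* lower (3 of 8, against 5.93%), at -2.20, -0.67 and -0.61. *Fmod* and *Ogn* were at 1.10 and 1.79 times the blood-like level in the Piezo1 fl/fl library, and the tenth of lining-like cells with the most *Chad* held 96.7% and 98.2% of its UMIs. No member passed the fold in mural-like cells (0 of 8 in both directions, against 3.63% and 5.27%). In endothelial-like cells *Bgn* was higher (1 of 8, against 6.24%), at 344 and 653 CPM, and *Dcn* and *Lum* lower (2 of 8, against 9.54%), both near the blood-like level. In blood-like cells *Prelp* was higher and *Aspn* lower (1 of 8 each, against 7.72% and 8.28%).

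**Figure D5:**
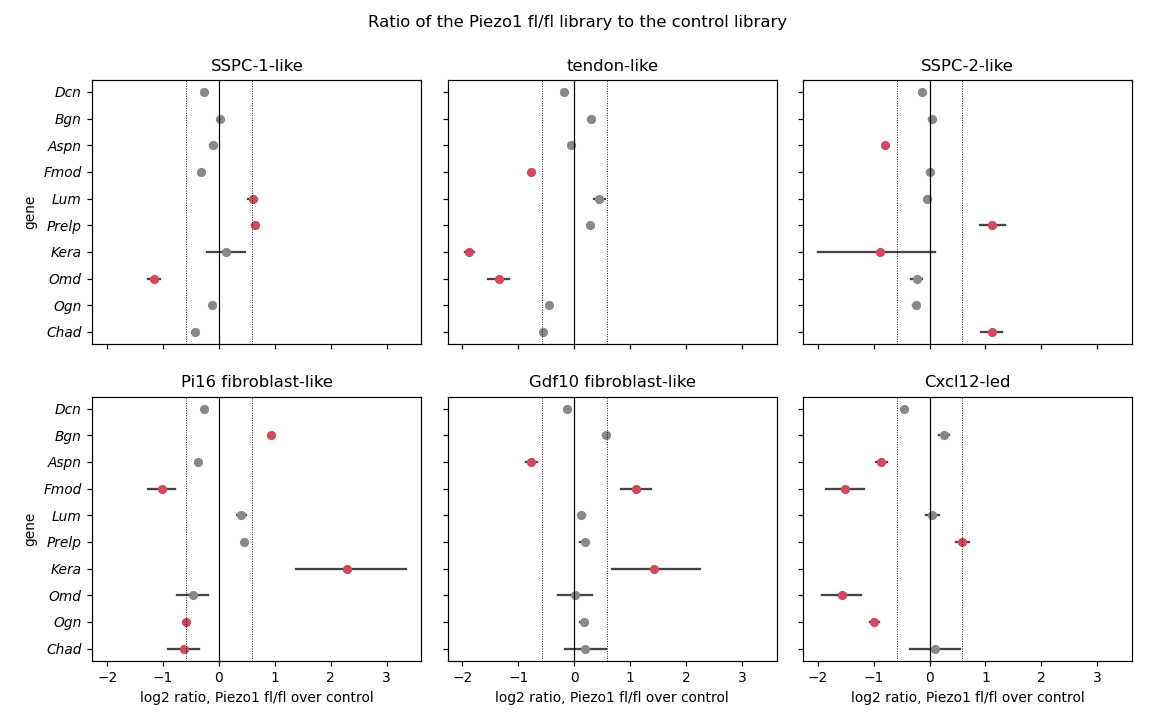
Log2 ratio of the Piezo1 fl/fl library to the control library (horizontal axis) for each member with 50 UMIs in 6 cell types, with lines for the 95% counting interval, dotted lines at 1.5 times and red points past it. *Kera* in tendon-like cells lay at -1.88, and *Omd* lay left of the fold in SSPC-1-like, tendon-like and Cxcl12-led cells.

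Of 8 further genes of the family, 4 had 50 UMIs, and *Ecm2* led them. *Ecm2*, which adjoins *Aspn* on chromosome 13, was highest in tendon-like cells, at 1042 and 976 CPM. *Podn* was highest in Gdf10 fibroblast-like cells, at 282 and 476 CPM, and *Podnl1* in SSPC-2-like cells, at 33.8 and 34.2 CPM. *Tsku* was at most 23.7 CPM in any large type of the control and 29.4 CPM in the other, and *Epyc*, *Optc*, *Nyx* and *Chadl* had fewer than 50 UMIs. *Ecm2* and *Podn* were past 1.5 times higher in SSPC-1-like cells of the Piezo1 fl/fl library (2 of 3, against 6.0% of all genes).

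Enzymes that build the chains were low beside the core proteins. Of 22 genes for dermatan and chondroitin sulfate chains, 20 had 50 UMIs in each library. *Dse*, which turns chondroitin into dermatan sulfate, was at 260 and 298 CPM in SSPC-1-like cells and at 336 and 254 CPM in blood-like cells. *Csgalnact2* was at 239 and 221 CPM in Pi16 fibroblast-like cells. *Csgalnact1* and *Ust* had the widest ranges in the control, the first from 0.187 CPM in SSPC-2-like to 59.1 CPM in endothelial-like cells and the second from 0.757 CPM in mural-like to 77.8 CPM in SSPC-1-like cells. Past 1.5 times, *Chst15* and *Csgalnact1* were higher in the Piezo1 fl/fl library and no gene lower, in SSPC-1-like cells (2 and 0 of 17, against 6.0% and 8.74%) and in tendon-like cells (2 and 0 of 17, against 8.72% and 7.50%). *Chst15* was low there, at 2.37 and 16.51 CPM in SSPC-1-like and 9.28 and 25.39 CPM in tendon-like cells. Blood-like cells had 10.45 and 21.74 CPM of *Chst15*. This gene was also past the fold, and higher, in SSPC-2-like, Gdf10 fibroblast-like and blood-like cells. *Csgalnact1* stood above its blood-like level in both types. Of 8 keratan sulfate genes 5 had 50 UMIs, with *Chst2* highest in lining-like cells, at 563 and 603 CPM, and *B4galt1* in Gdf10 fibroblast-like cells, at 348 and 544 CPM. In tendon-like cells, where *Fmod* and *Kera* were highest, *Chst2* was at 27.8 and 23.1 CPM. *B4galt4* was highest in endothelial-like cells, at 129 and 146 CPM.

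Of 9 proteases that act on the pericellular matrix 8 had 50 UMIs, and they were led by *Mmp2*, at 3990 and 3675 CPM in SSPC-2-like cells, and *Mmp13*, a marker used for those cells, at 2491 and 5888 CPM. *Mmp3* ranged from 0.560 CPM in SSPC-2-like to 159 CPM in Gdf10 fibroblast-like cells of the control. *Bmp1*, which trims biglycan and osteoglycin precursors, was highest in Pi16 fibroblast-like cells, at 351 and 401 CPM. In SSPC-1-like cells 2 of 8 proteases (*Tll1* and *Mmp3*) were past 1.5 times lower in the Piezo1 fl/fl library and 0 higher (8.74% and 6.0% of all genes). In tendon-like cells 3 of 7 (*Mmp3*, *Mmp13* and *Adamts4*) were higher and 0 lower (8.72% and 7.50% of all genes), of which *Mmp13* was near the free RNA level, at 14.4 and 24.7 CPM against 46.4 and 22.1 CPM in blood-like cells. All 8 cell surface partners of decorin and biglycan had 50 UMIs. Among them *Tlr2* was highest in blood-like cells, at 222 and 205 CPM. *Itga2*, a collagen receptor subunit, was highest in tendon-like cells, at 119 and 65.6 CPM. *Kdr*, a marker used for endothelial-like cells, was highest in those, at 1221 and 976 CPM. *Lrp1* was highest in Cxcl12-led cells of the control, at 620 CPM, with 281 CPM in SSPC-2-like cells. In tendon-like cells *Kdr* was past 1.5 times higher and *Met* and *Itga2* lower in the Piezo1 fl/fl library (1 and 2 of 8, against 8.72% and 7.50% of all genes), *Kdr* at only 6.18 and 10.4 CPM.

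Patterns over the 7 stromal types were compared by Pearson's r of log2(CPM + 10), as a description over 7 points that share a library. The neighbours on chromosome 13 had r of 0.80 and 0.83 (*Aspn* and *Omd*), 0.76 and 0.66 (*Omd* and *Ogn*) and 0.72 and 0.68 (*Aspn* and *Ogn*) in the libraries. Of the neighbours on chromosome 10, *Dcn* and *Lum* had 0.17 and -0.26, and *Lum* and *Kera* -0.11 and -0.19. *Lum* and *Aspn*, which lie on different chromosomes, had 0.79 and 0.65, and *Fmod* and *Chad* 0.80 and 0.76. Of 2234 other genes, those most like *Kera* were *Chodl* (0.98 and 0.99), *Thbs4* and *Rflnb*, and *Thbs4* is a marker used for tendon-like cells. Those most like *Aspn* were *Itga11* (0.99 and 0.98), *Dpysl3* and *Ackr4*, those most like *Chad* *Ecrg4* (0.95 and 0.97), *Ccn2* and *Cilp2*, and those most like *Omd* *Ptpn13* (0.98 and 0.97), *Cdh11* and *Mpzl1*. Those most like *Dcn* were *Prrg3*, *Sfrp2* and *Svep1*, like *Bgn* *Dio2*, *Sra1* and *Itga1*, like *Fmod* *Fibin*, *Actn1* and *Kcnma1*, like *Lum* *Pxk*, *Olfml2b* and *Tmem258*, like *Ogn* *Serpinf1*, *Amotl2* and *Rgl1*, and like *Prelp* *Abi3bp*, *Zbtb20* and *Igfbp6*. *Cilp2* is also a marker used for tendon-like cells, and *Dio2* is one used for SSPC-1-like cells.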

How the data were processed

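Cells sorted as Prx1 positive from periosteum were counted in 2 libraries, 1 per genotype. For each, the authors deposited a matrix of raw UMI counts per gene and barcode, and the labels name fastp, UMI-tools, STAR and Seurat 4.0.3 in the submitters' processing notes. The genome build and annotation are not given in the sources used here. Of 31253 gene identifiers, 31107 were found in GENCODE vM21 (GRCm38), 30203 with the same symbol.

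Kept barcodes had between 1000 and 5000 genes and less than 25% of UMIs from mitochondrial genes. Scrublet in scanpy 1.11.5 called 46 and 67 doublets (0.829% and 0.988% of the barcodes scored), which were removed, leaving 4418 cells with a median of 4812.5 UMIs and 5084 cells with a median of 4593. Cell types were rebuilt here from 101 marker genes of 15 classes. Seed cells gave each type a marker profile, and a cell took the type with the highest Poisson likelihood if it was at least 100 times the next. The steps of this rule were set after a simpler score had been seen to mix SSPC-1-like and tendon-like cells. Perineurial-like cells (46 in the control, 6 in the other, which lacked most markers) were not compared. UMIs were summed per type and divided by the type total, with exact Poisson, conditional or Clopper-Pearson binomial 95% intervals (scipy 1.17.1). Past the fold means at least 2 times between types or 1.5 times between libraries, among genes with at least 50 UMIs over the pair. The 10 members and all gene lists were chosen with earlier results of these data known. All 10 members were named, with the 3 genes most alike to each and the leading or most variable genes of the lists. Scripts were tested on simulated data. The type call recovered cells drawn from its own model, but with strong added spread between cells part of the simulated tendon-like and lining-like cells took another type, so other types may hold some such cells.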

Additional observations from a re-analysis of the deposited data

Results flagged for a closer look

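*Chad* in mature osteoblast-like over SSPC-2-like cells pointed in opposite directions in the libraries, with a log2 ratio of -0.51 (-1.04 to -0.01) in the control and 1.20 (0.80 to 1.58) in the Piezo1 fl/fl library. The difference between these ratios was not tested, since each genotype was 1 library. The ratios rest on 36 UMIs in the 71 mature cells of the control and 63 UMIs in the 17 mature cells of the other. *Chad* in mature cells was at 60.2 CPM in the control, against 41.8 CPM in blood-like cells, and at 426 CPM in the other library, against 61.3 CPM. The median mature cell had 0 CPM of *Chad* in both libraries. Chondrocyte markers moved with this, since the 7 of the list summed to 197 CPM in mature cells of the control and 1453 CPM in the other. Of these, *Col2a1* was at 136 and 682 CPM and *Acan* at 60.2 and 763 CPM, while *Col9a1*, *Col9a2* and *Cnmd* were at 0 in both. Their part in the difference was not tested.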

How the results depend on the processing

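No paired analysis was possible because each genotype was 1 library, and for the same reason no replicate could be left out. Of 1155 log2 ratios recomputed under the alternatives, 1077 kept their side of the fold, 75 crossed it and 3 that had been past it reversed. Levels were recomputed only for each member in its highest type, and 137 of 139 stayed within 1.5 times. All 3 reversals came with clusters, which alone moved 48 levels or ratios and left 118 in place. A level counted as moved there once it left its counting interval. The share of all UMIs of tendon-like cells held by the members (5.30% and 4.29%) was 5.23% and 4.31% with 500 to 6000 genes, 5.36% and 4.36% with a stricter call, 5.25% and 4.38% as a mean over cells, 5.92% and 4.73% without mitochondrial genes and members in the denominator, and 5.78% and 4.45% with clusters. With clusters the share of tendon-like cells with a *Kera* UMI was 69.0% and 40.7%, and tendon-like over SSPC-1-like cells had 2 members lower in each library. Also with clusters, Gdf10 over Pi16 fibroblast-like cells had 0 higher and 0 lower in the control and 3 lower in the other. There the genotype ratios of *Kera* (-0.15) and of *Fmod* and *Kera* (-0.17 and -3.48) reversed in Pi16 and Gdf10 fibroblast-like cells, respectively, and no cluster was mature osteoblast-like in the Piezo1 fl/fl library or Cxcl12-led in the control. A stricter call gave 1 member lower in tendon-like cells of the control, and for the fibroblasts 2 higher in the control and 4 higher and 2 lower in the other. With 500 to 6000 genes these were 1 lower in tendon-like cells of the control and 1 higher in Gdf10 fibroblasts of the other, and a mean over cells gave 0 lower in Gdf10 fibroblasts of the control. At 3 times, SSPC-2-like cells had 4 and 3 members lower, tendon-like cells 1 higher in the control and 0 lower in the other, mature osteoblast-like cells 1 higher in the Piezo1 fl/fl library, and Gdf10 fibroblasts 0 higher and 0 lower in the control and 1 higher and 0 lower in the other. Between genotypes, 2 times left 6 pairs higher and 9 lower of 13 and 20. The share over all genes was not computed under these alternatives, so their counts are not set against a background. The causes were not tested beyond the change of setting. Depth limits *Kera* outside tendon-like cells, and the number of cells limits all values of the 17 mature osteoblast-like cells.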
